A study of Mus musculus with 3 samples.

Results

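The mesenchymal-like cells outside division were 1442 of 14925 kept cells, 9.66% (exact 95% binomial interval 9.19 to 10.15%), of 1 mouse culture profiled by droplet single-cell RNA sequencing. They were chosen by unique molecular identifiers (UMIs, counted molecules) of 16 genes in each cell. M, the UMIs of Vim, Col5a1, Grem1, Aebp1 and Ccn5 together, had to be at least 3. E, those of Epcam, Krt5 and Krt14, could be at most 4, and P, those of the division genes Nusap1, Ube2c, Ccna2, Birc5, Cdc20, Top2a, Cdk1 and Cenpf, at most 1. The comparison cells were the 10698 cells with M of at most 1 and P of at most 1, whatever their E.

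The culture, called PC, came from esophageal organoids of mice carrying homozygous floxed Trp53 alleles. An adenovirus bearing Cre and EGFP removed Trp53, the gene of the tumour suppressor p53, and CRISPR/Cas9 then knocked out Cdkn2a, whose transcripts give the growth-arrest proteins p16 and p19Arf. The mesenchymal-like and the comparison cells share these changes, constitutive Cas9 and a lipofected barcode library; cells were grown in DMEM with serum, with the ROCK inhibitor Y-27632 at first and then without it, and live RFP-positive cells were sorted after passaging. The labels give the tissue as esophageal cancer, and the related PCN line was not analysed here. All cells come from 1 pooled matrix. Without a replicate culture, differences could not be set against the spread between cultures, and no p-values are given. No source used here gives the age or sex of the mice or the number of clones.

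Mesenchymal cells such as fibroblasts secrete and remodel collagen-rich matrix, carry the intermediate filament protein vimentin and lack the tight junctions, desmosomes and keratin networks of an epithelium. Epithelial cells can move toward this state, a change driven by transcription factors of the Snail, Zeb and Twist families that bind E-box sequences and repress epithelial genes. In the esophagus the epithelium is a stratified squamous one whose basal cells carry Krt5, Krt14 and Trp63.

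The matrix held 18116 barcodes with 47720034 UMIs, none of them repeated, and filters on depth and mitochondrial share removed 17.6%. The mesenchymal-like cells had 1058 UMIs in the shallowest, 3329 in the median and 8737 in the deepest cell, 4890743 in all, with a median of 1650 genes and 2.87% mitochondrial UMIs. The comparison cells had a median of 2748 UMIs, 1409 genes and 2.86% mitochondrial UMIs, and 30008439 UMIs in all. Trp53 stood at 17.0 CPM (UMIs per 1000000 UMIs of the summed cells; exact 95% Poisson interval 13.5 to 21.04) in the mesenchymal-like and at 51.9 CPM (49.4 to 54.6) in the comparison cells. For Cdkn2a the mesenchymal-like cells held 1260 CPM (1229 to 1292) and the comparison cells 590.6 CPM (581.9 to 599.4). Neither the stretch of Trp53 that was deleted nor the Cas9 cut site is stated in the labels, and a count from the 3' end does not show whether either gene works, so these values check nothing about the knockouts. All intervals here cover counting error only.

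The values of M that chose the cells were 3 in the lowest, 7 in the median and 49 in the highest mesenchymal-like cell. M was 0 in 85.7% of all kept cells and 2 in 1.23% of them. E was 0 in 878 of the mesenchymal-like cells (60.9%), 1 in 400 and at most 4 in the rest, against a median of 8 in the comparison cells. P was 0 in 1247 and 1 in 195 of them. Cells with M of at least 3 and E of at least 5 made up 6.16% of the 1641 cells with M of at least 3, 101 cells in all.

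**Figure D1:**
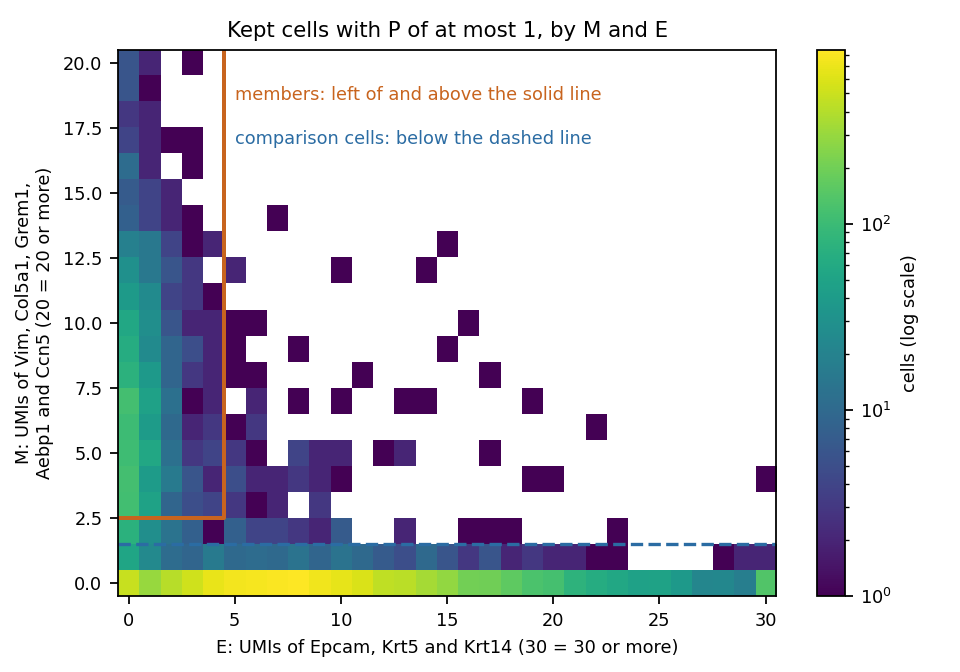
Number of kept cells with P of at most 1 (colour, log scale) by E (x axis, UMIs of Epcam, Krt5 and Krt14 per cell) and M (y axis, UMIs of the 5 mesenchymal markers per cell); the last row and column pool higher values. Most cells lie along one axis or the other, and 71 cells have M of at least 3 with E of at least 5.

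Cells next to the limits differed in some sums and not in others. Mesenchymal markers outside the rule summed to 6378 CPM in the 177 cells with M of 3 and to 6066 CPM in the 124 cells with M of 2 and the same limits on E and P, against 638.1 CPM in the comparison cells. Fn1 alone made up 4287, 3886 and 425.5 CPM of these sums, in the same order. Across the same limit epithelial markers summed to 432.9 CPM (378.1 to 493.5) at M of 3 and 644.9 CPM (565.2 to 732.6) at M of 2, and Wfdc18 stood at 127.6 CPM (98.65 to 162.3) and 521.9 CPM (450.5 to 601.4). The 24 cells with E of 4 held 1009 CPM of epithelial markers outside the rule and the 17 cells with E of 5 held 1453 CPM. The 195 cells with P of 1 and the 25 cells with P of 2 held 6692 and 7017 CPM of the mesenchymal markers. The class is defined by its rule.

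The 5 mesenchymal genes of the rule are given as a description, since they chose the cells. Vim, which encodes vimentin (chromosome 2, 13573927 to 13582826, plus strand, GRCm38), was at 1186 CPM in the mesenchymal-like and 4.999 CPM in the comparison cells, and 96.5% and 1.40% of the cells had a UMI. Grem1, a secreted BMP antagonist (chromosome 2, 113746164 to 113758646, minus strand), was at 440.0 and 0.600 CPM. Ccn5, a matricellular protein, was at 221.6 and 0.533 CPM. Col5a1, a chain of the collagen that nucleates fibrils, was at 170.7 and 1.27 CPM, and Aebp1, a collagen-binding protein, at 126.6 and 0.667 CPM. Per cell, Grem1 ran up to 37 UMIs with a median of 1, Vim up to 22 with a median of 4, and Col5a1, Aebp1 and Ccn5 had medians of 0.

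Each gene was also measured in cells chosen without it. The 753 cells with at least 3 UMIs of the other 4 genes held Vim at 1103 CPM (1063 to 1143), and 93.2% of them had a Vim UMI. Chosen by the other 4, Grem1 stood at 400.8 CPM in 1306 cells, Ccn5 at 208.2 CPM in 1379, Col5a1 at 163.7 CPM in 1394 and Aebp1 at 117.4 CPM in 1398. Among cells so chosen the level of each of the 5 was thus little lower. Comparison cells rechosen without each gene held more of it. Vim stood there at 70.1 CPM (67.3 to 73.1) in 11262 cells and Grem1 at 6.62 CPM. Col5a1, Aebp1 and Ccn5 stood at 2.36, 2.22 and 1.16 CPM. The gaps given above for the 5 genes were thus partly set by the rule. On the epithelial side, leaving Krt14 out of E admitted 1475 cells, in which Krt14 was at 160.2 CPM (149.3 to 171.6), 9 cells had over 4 Krt14 UMIs and the highest had 12.

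The name was checked on markers outside the rule. Of 19 mesenchymal markers, 10 had a mean level of at least 5 CPM over both sets of cells, the minimum for a comparison, and all 10 stood at least 2-fold higher in the mesenchymal-like cells with intervals that did not overlap, which is what "called" means below. They were Col1a1, Col3a1, Fn1, Sparc, Zeb1, Zeb2, Twist2, Snai1, Pdgfra and Dcn, and all 19 summed to 7106 CPM (7031 to 7181). Fn1, at 4720 CPM, and Sparc made up most of that sum. The other 9 were sparse. Col1a2, the partner chain of Col1a1 in type I collagen, had 3 UMIs, Prrx1 4, Twist1 7, Cdh11 13, Pdgfrb 14 and Fap 15. Cdh2, which encodes N-cadherin, Thy1 and Lum had 0 UMIs in both sets, for which the exact interval reaches 0.754 CPM in the mesenchymal-like cells. Of 16 epithelial markers, 15 passed the minimum and all 15 were called lower, and the list summed to 399.1 CPM against 3777 CPM. Markers such as Col3a1, Snai1 and Dcn passed the minimum only through their level in the mesenchymal-like cells, and so had to differ, so these counts describe the class and do not support its name.

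Markers of other cell types were given by their sums. Immune markers summed to 32.5 CPM in the mesenchymal-like and 55.9 CPM in the comparison cells, with Ptprc, Csf1r, Itgam and Adgre1 at 0 in the former. Endothelial markers summed to 0.818 CPM, with Cdh5, Tek, Emcn and Cldn5 at 0, and skeletal muscle markers had no UMI. Glial (2.66 CPM, Sox10 at 0), melanocyte (0.613 CPM) and cartilage and bone markers (0.204 CPM) were also near 0. Mesothelial markers summed to 73.2 against 58.6 CPM, all of it from Msln, with Wt1, Upk3b and Lrrn4 at 0, pericyte markers to 16.4 against 12.1 CPM, and adipocyte markers to 24.3 against 7.57 CPM, nearly all from Pparg, with Adipoq and Plin1 at 0. Smooth muscle markers summed to 5675 against 285.8 CPM. Acta2, Actg2 and Cnn1 made up that sum, while Des had 0, Myh11 4 and Lmod1 4 UMIs in the mesenchymal-like cells.

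Of 10088 genes compared, 1045 (10.4%) were called higher in the mesenchymal-like cells and 1046 (10.4%) lower. Of these, 218 were at least 10-fold higher and 208 at least 10-fold lower, and the median log2 ratio over all genes compared was -0.02. The 16 genes of the rule were left out, but the same cells and UMIs that chose the members carry these values, so the counts describe the class and are no test of it. Beyond the genes described below, the highest ratios belonged to Cd248 (endosialin, a stromal surface protein; 84 against 5 UMIs), Rasl11a, Sfrp4 (a secreted Wnt antagonist), Rxfp3, Masp1 (a complement lectin-pathway protease), Tmtc1, Megf10 and Tnn (tenascin N). Megf10 lost its call when cells were thinned to 1500 UMIs, at a log2 ratio of 5.09. Rasl11a stood at 47.2 against 0.466 CPM, Sfrp4 at 38.6 against 0.400 CPM and Masp1 at 61.9 against 0.700 CPM. At the other end, Wfdc18, a small secreted protein of epithelia, stood at 79.3 CPM (71.6 to 87.6) against 7396 CPM (7365 to 7427), 93.2-fold lower. Gabrp, Nts, Pof1b, Serpinb5 (maspin), Sprr2d (a cornified envelope protein), Fgfbp1, Spink5, Mmp15, Casq2, Tspan1 and Kcnk1 were the others furthest down, with 1 to 19 UMIs in the mesenchymal-like cells and levels of 39.5 to 283.1 CPM in the comparison cells.

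**Figure D2:**
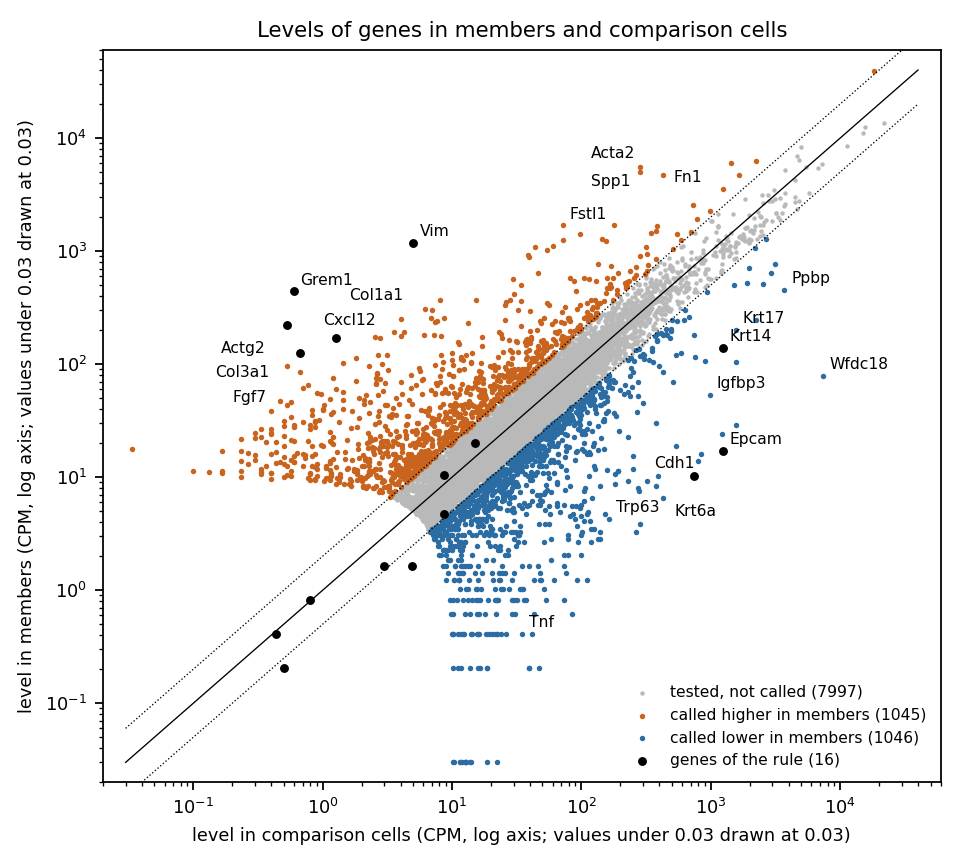
Level of each gene in the mesenchymal-like cells (y axis, members) against the comparison cells (x axis), both in CPM on log axes; the solid line marks equal levels and the dotted lines a ratio of 2. Orange points are the 1045 genes called higher, blue points the 1046 called lower, grey points the 7997 not called and black points the 16 genes of the rule, of which Vim and Grem1 lie far above and Epcam far below the line.

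Genes were grouped into 29 lists by function, described by counts and medians without a test. The counts of every list are to be read beside the 10.4% of all genes compared that were called in each direction. Genes near 0 in 1 set passed the minimum of 5 CPM only through the other and so had to differ. Col3a1, Adamts2, Col6a2 and Col6a3 were among them. Counts and medians of the lists are thus partly set by the minimum. Collagens and the enzymes that process them had the highest median of these lists, a log2 ratio of 4.87 over 19 genes compared, of which 17 were called higher and none lower. Col1a1, the major chain of type I collagen, stood at 306.7 CPM (291.4 to 322.6) against 6.13 CPM (5.28 to 7.08), 50.02-fold. Col3a1, type III collagen, stood at 84.7 CPM (76.7 to 93.2) against 0.667 CPM (0.407 to 1.03), 127.0-fold. Col6a3 of type VI collagen had 86 UMIs in the mesenchymal-like cells and 1 in the comparison cells, and its partner Col6a2 had 56 and 3, a ratio of 114.5 (37.2 to 572.1). The processing enzymes moved with the chains: Adamts2, which trims procollagen, was 80.9-fold higher (49.4 to 141.3), and the crosslinking oxidases Loxl2 and Lox 42.2-fold and 29.3-fold higher. Col8a1 (668.8 against 505.8 CPM) and the prolyl hydroxylase P4ha2 (123.7 against 68.2 CPM) were the 2 not called. Serpinh1, the collagen chaperone, had 0 UMIs in both sets.

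Matrix glycoproteins and proteoglycans followed with 15 of 19 called higher, 1 lower and a median of 3.37. Fn1, fibronectin, stood at 4720 CPM (4660 to 4782) against 425.5 CPM (418.2 to 433.0), 11.1-fold, and Sparc, a collagen-binding glycoprotein, at 1698 against 179.1 CPM. Decorin (Dcn) was 74.3-fold higher, fibrillin-1 (Fbn1) 46.9-fold, and the microfibril proteins Mfap2 and Mfap5 38.2-fold and 34.0-fold. Tenascin C (Tnc, 573.9 against 508.1 CPM) and periostin (Postn, 65.4 against 67.7 CPM), both known from activated stroma, were not called. Tgfbi, a TGF-beta-induced matrix protein, was called lower, at 6.75 against 29.99 CPM. Nid1 and Nid2 had 0 UMIs in both sets.

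Of 18 laminin, type IV collagen and hemidesmosome genes compared, 4 were called higher and 8 lower, with a median of -0.55. The type IV collagens Col4a1 (417.5 CPM, 399.6 to 436.0, against 30.1 CPM, 28.2 to 32.1) and Col4a2 (336.1 against 56.1 CPM) and the laminin chains Lamb1 and Lamc1 (122.9 against 46.6 and 77.3 against 30.7 CPM) were the 4 higher. The lower ones included hemidesmosome and epithelial laminin genes, which anchor basal keratinocytes: Col17a1 was 37.98-fold lower (10.2 against 388.3 CPM), Lama3 17.2-fold, Itgb4 6.85-fold and Lamb3 4.07-fold. Dst (300.2 against 415.1 CPM) and Cd151 (75.2 against 84.7 CPM) of the same list were not called. Of 10 integrins 5 were called higher and 3 lower. Itgb3, Itga5 (the fibronectin receptor chain), Itga7 and Itga1 were 27.7-fold, 12.4-fold, 11.7-fold and 7.22-fold higher, and Itgb6, Itga2 and Itgb8 17.2-fold, 3.02-fold and 2.70-fold lower, while Itgb1 (797.6 against 551.2 CPM) and Itgav were not called. Among cells with E of 0 alone Itgb8 fell short of a call, at a log2 ratio of -0.98.

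Among matrix proteases and their inhibitors 9 of 16 were called higher and 1 lower. Adam19 stood at 168.9 against 2.80 CPM, Timp3, an inhibitor of metalloproteinases, at 1014 against 54.0 CPM, and Plat, tissue plasminogen activator, at 65.6 against 5.23 CPM. Mmp10 (stromelysin-2) was 8.33-fold higher and Adamts1 5.80-fold lower. Mmp2, a gelatinase of many fibroblasts, had 0 UMIs in the mesenchymal-like and 17 in the comparison cells.

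Transcription factors of the mesenchymal transition were called higher in 9 of 15 cases and lower in 2, with a median of 1.68. Snai1 stood at 27.8 CPM (23.3 to 32.9) against 0.866 CPM (0.566 to 1.27), 32.1-fold, and Zeb1 at 91.6 CPM (83.3 to 100.5) against 5.53 CPM (4.72 to 6.44), 16.6-fold. Creb3l1, a regulator of collagen secretion, was 62.4-fold higher and Lef1, which acts with beta-catenin, 12.95-fold, and Twist2, Zeb2 and Prrx2 were 11.8-fold, 7.93-fold and 7.37-fold higher. Snai2, also expressed in basal epithelium, went the other way without being called, at 47.9 against 88.4 CPM. Sox9 and Foxc1 were called lower, 4.06-fold and 2.79-fold (1.74 to 4.77).

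Epithelial transcription factors and splicing regulators were the counterpart, with 17 of 19 called lower, none higher and a median of -3.64. Trp63, the master factor of squamous epithelia, stood at 4.29 CPM (2.66 to 6.56) against 164.3 CPM (159.7 to 168.9), 38.3-fold lower. Grhl2 was 50.1-fold lower (21.4 to 154.4, from 5 UMIs), Rab25, an epithelial vesicle-traffic GTPase, 42.5-fold (26.2 to 74.5) and the epithelial splicing factor Esrp1 35.6-fold. St14, a membrane protease, had 1 UMI in the mesenchymal-like cells against 39.1 CPM. Pitx1 (188.3 against 261.3 CPM) and Sox2 (38.2 against 70.5 CPM) were not called.

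Keratins outside the rule were all called lower, 8 of 8, with a median of -3.95. Krt6a was 65.5-fold lower, Krt8 48.3-fold (28.8 to 88.4), Krt7 32.3-fold and Krt19 31.1-fold, but Krt17 only 7.71-fold (202.4 against 1561 CPM) and Krt18 3.95-fold (62.6 against 247.4 CPM). Of 23 junction genes 14 were called lower and 1 higher. E-cadherin (Cdh1) was at 9.20 CPM (6.71 to 12.3) against 323.8 CPM (317.4 to 330.3), 35.2-fold lower, and Dsg3, Cldn7 and Cldn4 were 45.0-fold, 44.6-fold and 28.2-fold lower. The gap-junction gene Gjb2 was the 1 called higher, at 20.7 against 0.367 CPM, while the plaque protein Pkp1 (173.8 against 137.8 CPM) and Tjp1 were not called. Cdh2 had 0 UMIs, so the junction genes showed less E-cadherin without counted N-cadherin.

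Snail and Zeb factors bind the E-box CAGGTG, so this motif, read on both strands (CAGGTG or CACCTG), was looked up in the 250 bases before each RefSeq transcription start (GRCm38.p6). Rab25 and Cldn4 are shown because both are epithelial genes called lower whose windows hold it; letters run 5′ to 3′ on the gene's strand, exons of GENCODE M21 are left out, and capitals mark the motif. The Rab25 stretch is chr3:88548301-88548529 (minus strand), with motifs starting 64 and 53 bases before the start, and the Cldn4 stretch is chr5:134946935-134947184 (minus strand), with 1 motif starting 14 bases before the start.
Rab25: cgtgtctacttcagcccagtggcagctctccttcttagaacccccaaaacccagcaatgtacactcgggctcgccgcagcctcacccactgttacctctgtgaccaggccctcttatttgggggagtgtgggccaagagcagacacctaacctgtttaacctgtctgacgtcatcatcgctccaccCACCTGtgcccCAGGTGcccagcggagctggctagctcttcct
Cldn4: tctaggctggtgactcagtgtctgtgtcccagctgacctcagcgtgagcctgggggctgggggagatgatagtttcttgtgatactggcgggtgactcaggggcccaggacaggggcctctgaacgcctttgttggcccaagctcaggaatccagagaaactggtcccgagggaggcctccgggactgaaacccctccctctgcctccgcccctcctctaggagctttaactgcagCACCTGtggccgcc
The motif stood in 224 of 1070 windows (20.9%, 18.5 to 23.5%) of 796 genes called lower and in 137 of 1029 (13.3%, 11.3 to 15.5%) of 785 genes called higher. For compared genes not called the share was 14.2%. Some genes had more than 1 window, and the intervals of window shares here and below count windows as independent. Over all 32851 windows in the table the share was 17.2%. Promoters were found for 8062 of the 10088 compared genes, and a match of letters is no evidence of binding.

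Genes of the actin contractile apparatus were called higher in 13 of 21 cases and lower in none, with a median of 1.55. Acta2, smooth muscle alpha-actin and a marker of myofibroblasts, stood at 5551 CPM (5485 to 5617) against 284.4 CPM (278.4 to 290.5), 19.5-fold. Actg2, the enteric smooth muscle actin, stood at 96.3 CPM (87.8 to 105.4) against 0.533 CPM (0.305 to 0.866), 180.6-fold (110.1 to 318.6), the largest ratio in these lists apart from genes with under 4 UMIs in a set. Cnn1 (calponin) was 79.8-fold higher (42.0 to 170.3), the regulatory light chain Myl9 24.8-fold, Tagln (transgelin) 19.2-fold and vinculin (Vcl), which links integrins to actin, 4.35-fold. Myh9 (469.3 against 250.9 CPM) and Tpm4 (516.7 against 362.1 CPM) of non-muscle cells were not called.

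Many contractile genes carry a CArG box, the binding sequence of serum response factor. Of 13 windows of 10 contractile genes called higher 3 held one (23.1%, 5.04 to 53.8%), those of Myl6, Myl9 and Vcl. Acta2, Actg2 and Cnn1 were not among them. The share was 1.47% of all windows, and 22 of 1029 (2.14%, 1.35 to 3.22%) of those of genes called higher. Only 10 of the 13 contractile genes called higher had a window. Myl9 and Vcl are shown as examples of genes called higher, with the box in capitals, read as above. The Myl9 stretch is chr2:156775214-156775419 (plus strand), with the box starting 161 bases before the start, and the Vcl stretch is chr14:20929148-20929397 (plus strand), with the box 227 bases before it.
Myl9: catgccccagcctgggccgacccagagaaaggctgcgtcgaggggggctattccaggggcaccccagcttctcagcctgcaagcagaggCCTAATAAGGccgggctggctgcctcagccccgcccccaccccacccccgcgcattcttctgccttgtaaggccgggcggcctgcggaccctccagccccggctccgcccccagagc
Vcl: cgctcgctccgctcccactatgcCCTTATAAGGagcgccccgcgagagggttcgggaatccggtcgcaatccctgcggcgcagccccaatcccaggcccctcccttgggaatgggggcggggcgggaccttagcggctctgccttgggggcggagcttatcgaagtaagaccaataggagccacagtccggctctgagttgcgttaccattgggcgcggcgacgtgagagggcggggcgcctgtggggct

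Signalling genes changed in both directions. In the BMP and TGF-beta list 13 of 25 genes were called higher and 3 lower, with a median of 1.00. Fstl1, a secreted follistatin-like glycoprotein, stood at 1691 CPM (1655 to 1728) against 72.3 CPM (69.2 to 75.4), 23.4-fold, and the betaglycan co-receptor Tgfbr3 was 57.3-fold higher (33.6 to 105.1). The ligand Tgfb3 was 5.401-fold and the activin chain Inhba 4.17-fold higher (1439 against 344.9 CPM). The activin antagonist Fst and the inhibin chain Inhbb were 6.54-fold and 4.498-fold lower, and the receptor Tgfbr1 2.88-fold lower. Grem1 of the rule belongs to the same pathway, and its target Id1 was not called (291.4 against 204.8 CPM).

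In the Wnt list 4 of 22 genes were called higher and 9 lower, beside 10.4% of all genes compared in each direction. The antagonists Dkk2 (176.0 against 4.07 CPM, 43.3-fold) and Dkk3 (4.16-fold), the ligand Wnt5a (194.2 against 23.2 CPM, 8.38-fold) and the receptor Fzd7 (4.22-fold) were the 4 higher. The ligands Wnt4, Wnt7b and Wnt10a were 13.8-fold, 11.9-fold (5.74 to 29.8) and 3.97-fold lower, and the receptor Ror1 12.1-fold lower.

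Growth factor genes also split, with 10 of 28 called higher and 7 lower, and a median of 0.02. Fgf7, the keratinocyte growth factor that stroma supplies to epithelium, stood at 65.8 CPM (58.8 to 73.4) against 0.767 CPM (0.486 to 1.15), 85.9-fold. Fgf2, Pdgfc and the receptor Fgfr1 were 36.6-fold, 10.3-fold and 9.83-fold higher. The receptor Erbb3 had 3 UMIs and was 29.2-fold lower (9.93 to 141.9), and Fgf1, Tgfa and Kitl were 21.1-fold (9.01 to 65.3), 10.1-fold (5.61 to 20.3) and 7.82-fold lower (4.79 to 13.8). Of the IGF-binding proteins, Igfbp4 was 29.6-fold higher (180.5 against 6.10 CPM) and Igfbp3 18.5-fold lower (53.4 against 988.3 CPM), and Igfbp7 was not called (8413 against 4978 CPM).

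Chemokines and cytokines were called higher in 6 and lower in 12 of 26 cases, with a median of -0.94. Cxcl12, the stromal ligand of CXCR4, stood at 193.6 CPM (181.5 to 206.4) against 3.57 CPM (2.92 to 4.31), 54.3-fold, and the monocyte attractants Ccl7, Ccl8 and Ccl2 were 17.3-fold, 6.51-fold and 3.998-fold higher. Ppbp, a neutrophil attractant, was 8.13-fold lower (456.2 against 3707 CPM), Ccl9 24.8-fold, Tslp 7.68-fold and Cxcl5 3.66-fold lower. Tnf had 2 UMIs against 34.9 CPM. The CXC chemokine Cxcl1 (297.1 against 485.9 CPM) and Cxcl16 were not called.

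Interferon-stimulated genes were called higher in 9 of 25 cases and lower in 2, with a median of 0.68. Isg15 was 4.19-fold (544.1 against 129.9 CPM), Ifi27l2a 3.96-fold, Gbp3 3.49-fold and Ifit1 3.11-fold higher. Ifitm3 (762.1 against 3112 CPM) and Irf1 were the 2 lower. Of 13 genes of MHC class I presentation 4 were called higher, beside 10.4% of all genes compared. They were B2m (1936 against 776.5 CPM), H2-M3, Psmb8 and Tap2, while H2-K1 and H2-D1 were not called.

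**Figure D3:**
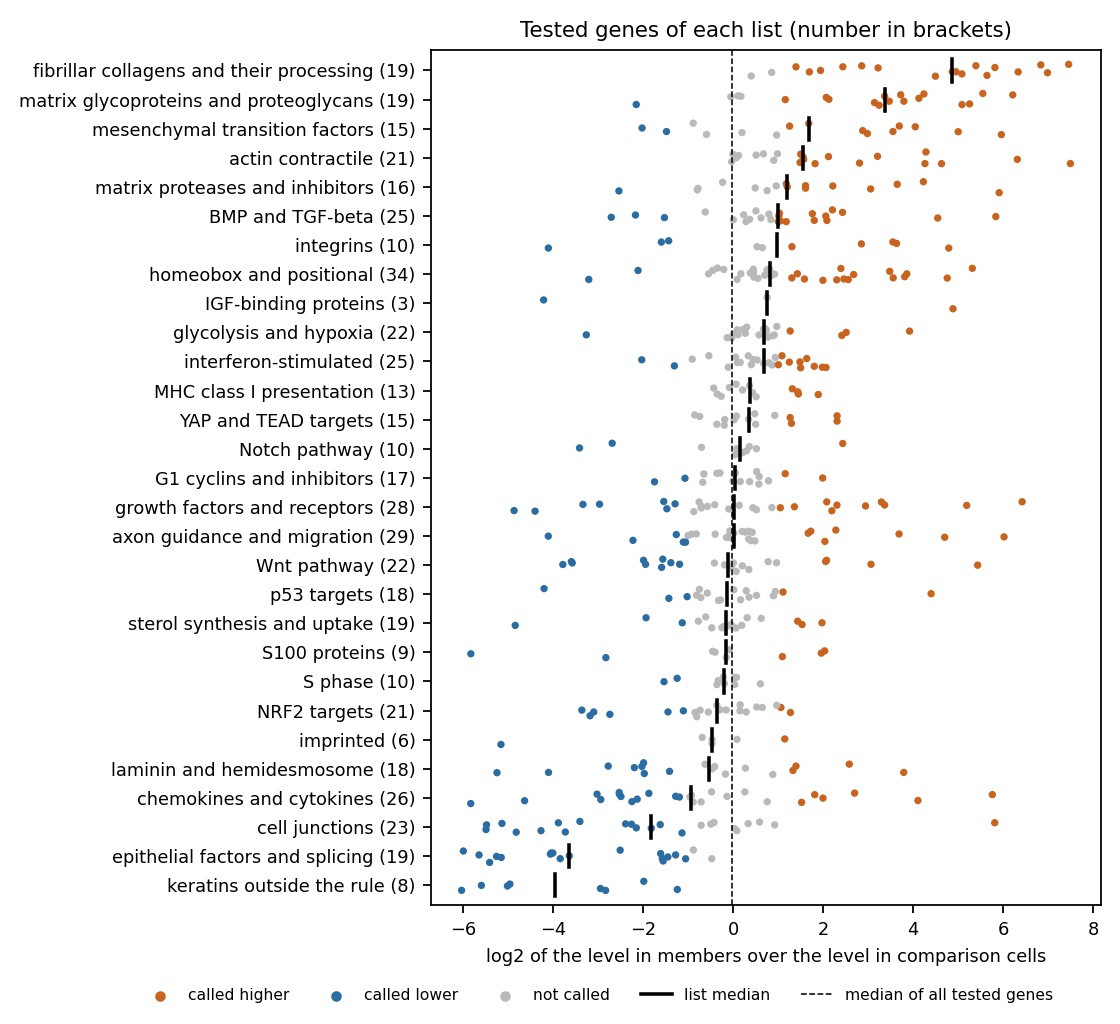
Log2 ratio of the level in mesenchymal-like (members) to comparison cells (x axis) for each gene compared in the 29 lists (y axis, number of genes in brackets); black bars are list medians and the dashed line is the median of all genes compared, -0.02. Collagens lie furthest right with a median of 4.87 and keratins furthest left with a median of -3.95.

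Of the homeobox and related positional genes 15 of 34 were called higher and 2 lower. Foxf1, a factor of visceral mesenchyme, was 39.9-fold higher (39.9 against 1.000 CPM), Nr2f1 27.1-fold (14.3 to 55.7) and Tbx15 14.5-fold, and Tbx2 and Osr2 were lower. HOX genes, whose number follows their position in a cluster and along the body axis, were looked at together. Of 39 in the matrix 20 could be compared, 11 were called higher and none lower. These counts too are partly set by the minimum of 5 CPM.

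In the HoxB cluster the genes of lower number were not called: Hoxb2 stood at 95.3 against 56.4 CPM, Hoxb3 at 48.7 against 33.2 CPM and Hoxb4 at 65.4 against 47.9 CPM. From Hoxb5 on all 5 compared were called higher. Hoxb5 was 5.51-fold, Hoxb6 11.8-fold, Hoxb7 11.2-fold, Hoxb8 14.1-fold (38.4 against 2.73 CPM) and Hoxb9 3.003-fold higher. Hoxb5 to Hoxb8 stood at no more than 2.73 CPM in the comparison cells. They passed the minimum of 5 CPM only through the mesenchymal-like cells and so had to differ by over 2-fold. Their calls thus do not show a split by number in this cluster. Of the 5, only Hoxb9 (70.54 against 23.49 CPM) could have gone uncalled by its ratio. In the HoxC cluster Hoxc4 (119.6 against 112.5 CPM) and Hoxc5 (13.7 against 18.7 CPM) were not called, and Hoxc6, Hoxc8 and Hoxc9 were 3.99-fold, 4.94-fold and 5.27-fold higher. In the HoxA cluster Hoxa4, Hoxa5 and Hoxa10 were 2.47-fold, 2.69-fold and 6.41-fold higher, with Hoxa7 (44.6 against 25.3 CPM) and Hoxa9 between them not called, so no split by number was seen there. Hoxa10, at 2.27 CPM in the comparison cells, also had to differ. No HoxD gene had a UMI in either set.

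**Figure D4:**
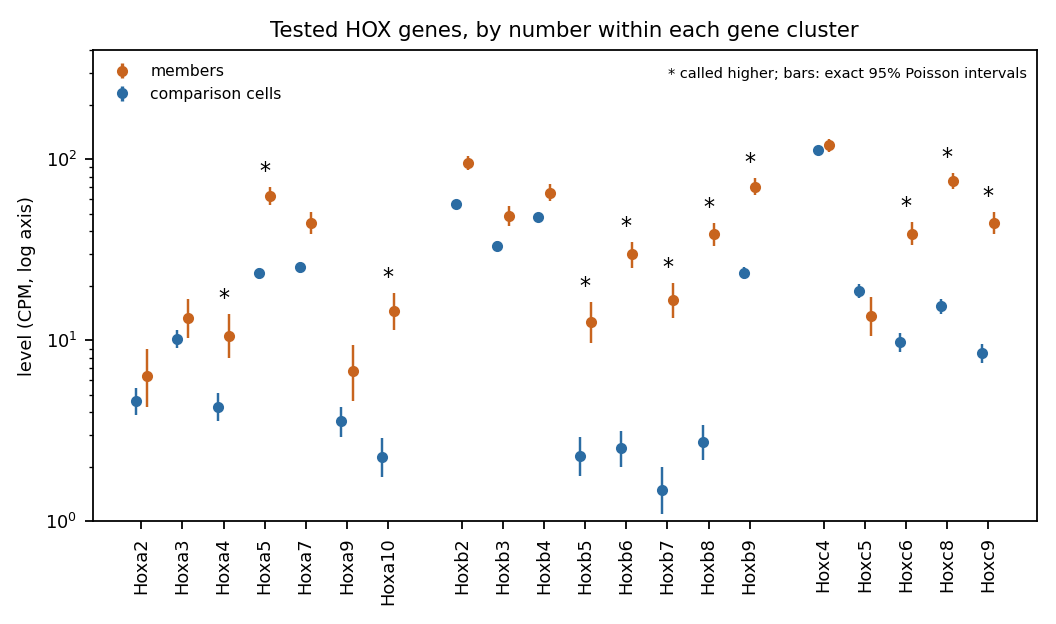
Level (y axis, CPM, log axis) of the 20 HOX genes compared (x axis, by cluster and number) in mesenchymal-like cells (members, orange) and comparison cells (blue), with exact 95% Poisson intervals as bars; stars mark the 11 genes called higher. Hoxb2 to Hoxb4 lie close together in both sets and Hoxb5 to Hoxb9 lie apart, but Hoxb5 to Hoxb8 passed the minimum only through the mesenchymal-like cells.

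For genes of metabolism, stress and growth control the counts are again set against the 10.4% of all genes called in each direction. Of 22 glycolysis and hypoxia genes 4 were called higher, Car12 (15.2-fold), Slc16a3 (5.71-fold), Ankrd37 (5.34-fold) and Hk2 (2.41-fold), and Adm was 9.59-fold lower. Of 21 NRF2 targets, antioxidant genes, 6 were called lower, led by Aldh3a1 (10.3-fold), Slc7a11, Gsto1 and Gsta4, and Gstm1 and Nqo1 were higher. Of 15 YAP and TEAD targets and partners 4 were called higher, led by Crim1 and Amotl2 (4.97-fold and 4.96-fold), and none lower. Of 18 genes listed as p53 targets 2 were called higher, Ddit4l (21.1-fold) and Pmaip1 (2.16-fold), and 3 lower, near the share over all genes. Cdkn1a, which encodes p21, was 18.4-fold lower (4.70 CPM, 2.98 to 7.06, against 86.5 CPM, 83.2 to 89.9).

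Among G1 regulators cyclin D1 (Ccnd1) was 3.35-fold and Myc 2.10-fold lower, and the CDK inhibitors Cdkn2c and Cdkn2d were 3.98-fold and 2.23-fold higher, 2 of 17 genes called in each direction, near the 10.4% over all genes. Myc fell short of a call with M of at least 5, at a log2 ratio of -0.9997, and with cells weighted equally, at -0.98. Cdkn2a itself, which is outside that list, was 2.13-fold higher. The call was lost among cells with at least 1000 genes and 2000 UMIs, where its log2 ratio was 0.98. After each cell was thinned to 1500 UMIs, 79.5% of mesenchymal-like against 53.1% of comparison cells had a Cdkn2a UMI. In the Notch list 1 of 10 genes was called higher and 2 lower. Nrarp was 5.42-fold higher, and Jag2 and Notch3 were 10.7-fold (6.42 to 19.1) and 6.44-fold (3.23 to 15.04) lower, with Hes1 (376.8 against 356.2 CPM) and Jag1 not called. Notch1, which is outside that list, was 3.70-fold lower (6.75 against 24.96 CPM). Sema3a, Slit3, Plxnd1 and Ntn4 were the most raised of 7 axon guidance genes called higher of 29, with 5 lower, among them Sema3d (17.2-fold). Of 19 sterol genes 3 were called in each direction, against 10.4% of all genes, with Ch25h 28.7-fold lower, and of 9 S100 genes S100a14 was 56.8-fold lower and S100a1 4.10-fold higher. Of 6 imprinted genes compared, Plagl1 was 35.7-fold lower (13.9 to 131.4, from 4 UMIs) and Impact 2.22-fold higher.

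Epithelial transcripts outside the rule remained in the mesenchymal-like cells at different shares of the comparison level. Wfdc18 was at 1.07% and Ly6d at 1.96%, but Krt17 at 12.97%, Dsp at 19.1%, Perp at 22.5%, Krt18 at 25.3%, Jup at 32.6% and Spint2 at 33.6%. Epcam at 1.38%, Krt5 at 1.39% and Krt14 at 11.1% are genes of E, which the rule capped in these cells and not in the comparison cells, so their shares are a description only. The part of RNA carried over from other cells in these values was not tested. At thinned depth a Wfdc18 UMI was found in 5.45% of mesenchymal-like and 66.5% of comparison cells, and a Krt17 UMI in 22.3% and 77.9%. Over all 1046 genes called lower, 60 stood at up to 3% of the comparison level and 640 at 25 to 50%.

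The cells varied with M and E. Over M of 3 to 5 (539 cells), 6 to 11 (737) and 12 or more (166), Col3a1 stood at 50.1, 80.4 and 189.9 CPM. Col1a1 stood at 237.1, 321.0 and 427.6 CPM, and intervals did not overlap for either gene. Cdh1 stood at 16.3, 6.19 and 3.09 CPM, but the last interval (0.374 to 11.2) overlapped both others. Wfdc18 did not fall steadily (92.3, 65.8 and 100.3 CPM), and Krt17 (210.0, 202.7 and 182.1 CPM) had overlapping intervals. Epithelial markers outside the rule summed to 447.1, 377.5 and 362.7 CPM, the last 2 with overlapping intervals. Snai1, at 22.3, 29.8 and 34.0 CPM, had overlapping intervals. Median depth was 3033, 3426 and 3722 UMIs in the same order, and its part in these values was not tested. Cells with E of 0 held Col3a1 at 100.1 CPM and those with E of 1 to 4 at 63.5 CPM, and Krt17 at 157.4 and 264.1 CPM.

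The spread of single genes over cells was described by the variance-to-mean ratio of thinned UMIs, which counting error alone puts near 1. Among the 2607 genes that averaged 0.1 UMIs or more per cell, the median ratio was 1.04, and 96 genes (3.68%) reached 1.5. After the added sequences Scar (24.9) and GFP (21.4), the highest ratios belonged to Tmsb4x (18.3), Spp1 (13.4), Malat1 (10.3), Sprr1a (9.80), Acta2 (8.43), Mmp12 (8.24), Tagln (5.38) and Actb (5.20). Spp1, osteopontin, had 4 thinned UMIs in the median cell and 113 in the highest, and Acta2 had 6 and 55. Mmp12, macrophage elastase, was found in 4.40% of cells with up to 22 UMIs. Tagln was found in 24.1% of cells with up to 21 UMIs, so both genes were uneven over the class.

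Clustering the mesenchymal-like cells alone, without the 16 genes of the rule, GFP and Scar, gave 6 groups. They are described by the genes that lead them and are no test. Group 1 (512 cells, 35.5%) was led by Nav3, Fut9, Lyst, Cp, Gas1 and Rad51b. Acta2 was lowest there, at 2766 CPM, and Tagln was at 111.6 CPM against 804.5 CPM in the other mesenchymal-like cells, while Col3a1 was at 130.0 against 61.0 CPM. Group 3 (286 cells) was led by F3 (tissue factor), Galnt18, Fhl1, Cavin3, Edn1 and Myl9, with Acta2 at 10034 CPM. Acta2 and Myl9 thus stood lowest of the 6 groups in group 1 and highest in group 3, where Col3a1 was at 63.2 CPM.

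Group 2 (361 cells), led by Ccl7, Cd59a, Ebpl, Trappc1, Tmsb4x and Ifi30, differed from the others in these genes by ratios of 1.58 to 1.64, none of them called. Group 4 (208 cells) was led by Uchl1, Cxcl5, Prkg2, Ankrd1, Casp6 and Tagln. It also held the interferon-induced Cxcl10 at 327.3 CPM (285.4 to 373.6) against 16.6 CPM (12.9 to 20.9) in the others, and Ifit3 at 115.1 against 17.3 CPM. Few of its cells carried these values, 11.5% with a Cxcl10 and 17.8% with an Ifit3 UMI. Group 6 (30 cells) was led by Defb3 (a defensin), Thbs2, Slc24a2, Fbln5, Sod3 and Cthrc1 and held Spp1 at 22864 CPM against 4542 CPM. Its Fn1, Fstl1 and Col1a1 were the lowest of the 6 groups, at 1898, 226.7 and 75.6 CPM, and its median M was 4.5, near the limit. Vim of the rule was also lowest in group 6, at 545.8 CPM against 1201 CPM in the others. So was Col3a1, at 8.40 CPM from 1 UMI.

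Group 5 (45 cells, 3.12%) was led by the epithelial genes Ly6d, Gpx2, Fxyd3, S100a14, Krt6a and Wfdc18. Epcam was at 234.1 CPM (168.0 to 317.6) there against 9.12 CPM (6.599 to 12.3) in the other mesenchymal-like cells, Vim at 748.0 against 1202 CPM, the median E was 3 and the median depth 3903 UMIs. These cells go against their class name in their leading genes. They held 88.1% of the Ly6d, 63.9% of the Wfdc18 and 48.8% of the Epcam UMIs of the class but 6.03% of the Krt14 and 9.09% of the Krt17 UMIs. Without them, a removal chosen after the groups were seen, 1071 genes were called higher and 1072 lower, and Wfdc18 stood at 0.401%, Epcam at 0.731% and Krt14 at 10.8% of the comparison level. Doublets were not removed, and their part in this group was not tested. The boundaries of groups 1 to 4 moved with the settings: at other resolutions and with another seed there were 4 to 8 groups with adjusted Rand indices of 0.214 to 0.569, while at least 95.6% of group 5 and 96.7% of group 6 stayed together. At resolution 0.3 group 6 fell into a cluster of 705 cells.

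**Figure D5:**
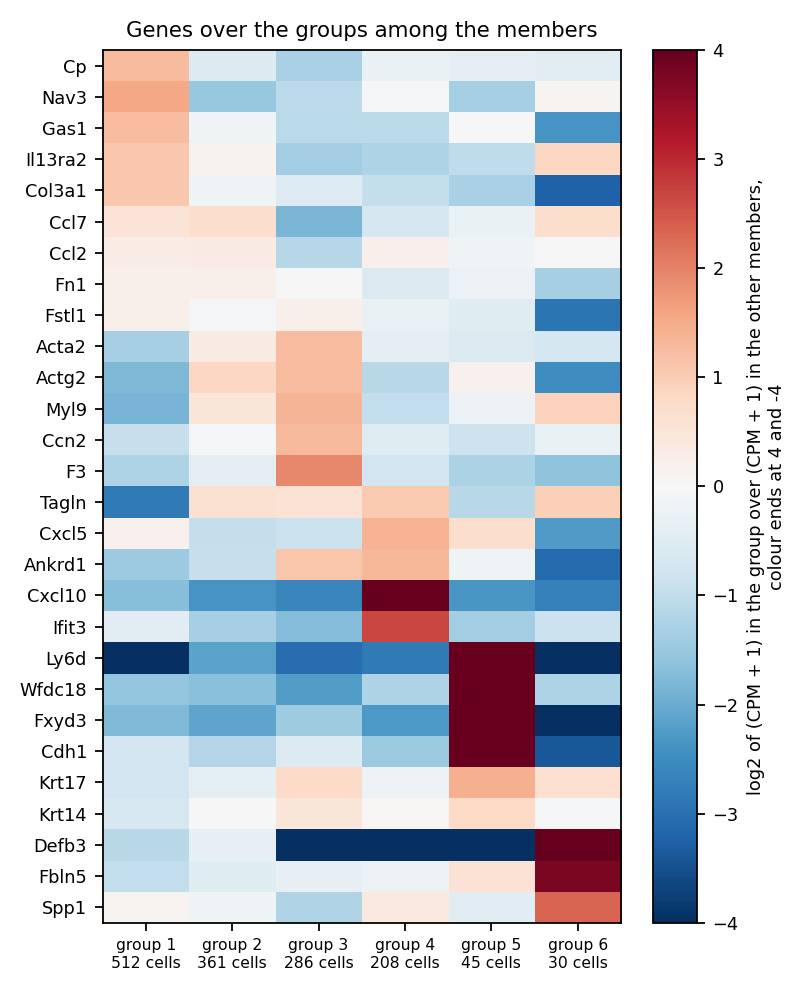
Log2 ratio of the level of each gene (y axis) in a group to the other mesenchymal-like cells (colour, with 1 CPM added to both, ends at -4 and 4) for the 6 groups (x axis, with cell numbers). The contractile genes Acta2 and Myl9 are red in group 3 and blue in group 1, and Ly6d, Wfdc18 and Fxyd3 are red in group 5.

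Dividing cells of the same marker profile, with P of at least 2, numbered 98. They were 6.36% (5.20 to 7.70%) of the 1540 cells with M of at least 3 and E of at most 4, against 18.3% (17.7 to 19.01%) of the 13100 cells with M of at most 1, with median depths of 3358 and 2875 UMIs. At 1500 UMIs per cell the shares were 4.18% (3.24 to 5.31%) and 15.6% (14.9 to 16.3%). The cells with M of at least 3 had the lower share at the greater depth; the cells with M of at most 1 carry no limit on E.

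Against these 98 cells, 114 of 9994 genes (1.14%) were called higher in the mesenchymal-like cells outside division and 418 (4.18%) lower. The lower ones were led by Hmmr (0.818 against 163.0 CPM), Aspm, Plk1, Pclaf (4.29 against 411.1 CPM), Esco2, Bub1, Kif20a and Shcbp1, genes of mitosis and replication that go with the P that split the cells, and 10 of 14 S-phase genes compared and 7 of 18 G1 regulators were lower. Of 10 mesenchymal markers outside the rule compared, 1 was called higher, Col3a1, and 1 lower, Dcn (22.3 against 53.5 CPM, 2.40-fold, 1.45 to 3.82), and all 19 summed to 7106 CPM (7031 to 7181) against 4796 CPM (4587 to 5013). Fn1 stood at 4720 against 2987 CPM (2822 to 3159) without being called, as did Col1a1 at 306.7 against 306.5 CPM and Acta2 at 5551 against 5203 CPM. Several of those called higher had few UMIs in the dividing cells. Mmp12 (381 against 3 UMIs) was 10.7-fold higher (3.63 to 52.0), Ccl20 4.99-fold (2.12 to 15.5), Rasl11a 4.86-fold (1.87 to 18.0), Ogn 4.26-fold (2.36 to 8.58), Col3a1 3.87-fold (2.02 to 8.52) and Bmp2 4.09-fold (1.37 to 20.1). Of the 381 Mmp12 UMIs 312 lay in group 1, where 9.96% of cells had one. The interval of its ratio leaves out this uneven spread over cells. Cp, with 88 UMIs there, was 2.80-fold (2.27 to 3.50) and Ntn4, with 24, 3.37-fold higher (2.25 to 5.28). Speg, 9530026P05Rik and Prr9 were also among the highest. With every cell thinned to 1500 UMIs, 73 genes were called higher, 29 of them among the 114, and 272 lower, 216 of them among the 418.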

How the data were processed

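The deposited matrix holds counts of UMIs per gene and barcode; per the file headers the authors made it with Cell Ranger 8.0.1, and per the submitters' processing notes with mm10 and Scanpy 1.8.2. The annotation is not given in the sources used here, nor is which of the 3 libraries of the 1 sample gave which reads. Barcodes were kept from 500 genes and 1000 UMIs upward, with mitochondrial UMIs of no more than 20%. Doublets were not removed and no caller was run. UMIs were summed per set of cells and given as CPM, with exact Poisson intervals. The Clopper-Pearson method gave the intervals of shares. A gene was called at a ratio of at least 2 with intervals apart, among genes with a mean of at least 5 CPM over both sets. Genes with under 3 UMIs in a set were ranked at 3 UMIs. Thinning to 1500 UMIs left 1432 mesenchymal-like and 9169 comparison cells, leaving out 10 and 1529. Groups came from 1000 variable genes, 20 principal components, 15 neighbours and Leiden clustering at resolution 0.5 with seed 0. Tools were numpy 2.4.6, scipy 1.17.1, pandas 2.3.3, scanpy 1.11.5 and igraph 0.11.9. The comparison was also run on simulated counts with counting error alone, which cannot show how calls hold under spread between cells.

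The cells, lists and rules were chosen with earlier results of these data known. Genes named are those of the rule, the engineered genes, the 15 and 8 called genes of largest ratio in each direction of the 2 comparisons, up to 4 called genes per direction and 2 uncalled genes per list, the 10 most variable genes and the 6 leading each group. Others, such as Fn1, Sparc, Twist2, Prrx2, Snai2, Lox, Loxl2, Vcl, Dst, Cd151, Cxcl10, Ifit3 and the HOX genes, were chosen after their values were seen. Promoters are RefSeq's of GRCm38.p6, and 32158 of 32287 feature IDs were found in GENCODE M21.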

Additional observations from a re-analysis of the deposited data

Results flagged for a closer look

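The matrix holds 2 added sequences, GFP and Scar. They were compared like other genes, count in the UMI totals and were held out of the clustering alone. GFP had a UMI in 100% of the mesenchymal-like cells and in 99.99% of the comparison cells, and Scar in 100% and 99.94%. For both sequences the exact interval of the share in the mesenchymal-like cells was 99.74 to 100%, and no sample without these sequences was analysed. GFP stood at 12443 CPM in the mesenchymal-like and 15566 CPM in the comparison cells and Scar at 11019 and 15087 CPM, neither called.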

How the results depend on the processing

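The number of mesenchymal-like cells outside division was 1366 with at least 1000 genes and 2000 UMIs, 1085 with M of at least 5, 1353 with M counted per 1000 UMIs, 878 with E of 0 and 1247 with P of 0. At a ratio of at least 3, genes called higher in members than in comparison cells numbered 608, genes called lower in members than in comparison cells 536, and genes called higher in members than in dividing mesenchymal-like cells 33. At a mean of at least 20 CPM, 562 and 530 genes were called against the comparison cells, and genes called lower in members than in dividing mesenchymal-like cells numbered 258. Thinned, 73 and 272 genes were called against the dividing cells, and the share of cells with P of at least 2 among cells with M>=3 and Epcam+Krt5+Krt14<=4 was 4.18%. Apart from M per 1000 UMIs, which can also admit cells with M under 3, these limits admit fewer cells, genes or UMIs by construction. The thinned calls against the dividing cells were not a subset of the main ones. Of the 73 called higher 29 were among the main calls, and of the 272 called lower 216. Of 202 called named genes, 2204 values under 11 settings kept their call, 18 values of 10 genes fell short of it and 0 reversed, and 7 uncalled genes were called under a setting. Leaving out the group led by epithelial transcripts was chosen after seeing the data. No paired analysis was possible because the matrix holds 1 sample. Depth limits the dividing set most, where 3 UMIs are 7.30 CPM, against 0.613 CPM in the mesenchymal-like cells.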
